A study of Homo sapiens with 4 samples.

Results

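The genes described here were 9 receptor tyrosine kinase genes and 1 ligand gene that are studied as growth factor signalling genes in sarcoma: *PDGFRA*, *PDGFRB*, *KIT*, *EGFR*, *ERBB2*, *IGF1R*, *IGF2*, *MET*, *NTRK3*, and *RET*. They were 10 of the 20033 protein-coding genes of GENCODE 44 and were chosen by name. A peak was counted for a gene when it overlapped the gene body or the 10 kb on either side, and it was called a promoter peak when its centre lay from 1000 bp upstream to 100 bp downstream of any annotated transcription start site (TSS) of the gene. All positions are in hg38.

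The peaks came from CUT&RUN, in which nuclease tethered to an antibody releases DNA around the bound protein, in HSSY II cells, an established human synovial sarcoma (SS) line that carries the SS18::SSX fusion. Cells were cultured for 4 days with DMSO or with 2.5 μM MS67, a PROTAC that directs the chromatin protein WDR5 to degradation, and were profiled with an antibody to SS18::SSX or to WDR5. This gave 4 groups: SS18::SSX with DMSO, SS18::SSX with MS67, WDR5 with DMSO, and WDR5 with MS67. Each group was 1 library of 1 cell line, so no difference below has a replicate check and no p-value is given. Peak lists hold no RNA or protein values, so neither the identity of the cells nor the expression of these genes could be read from them.

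Receptor tyrosine kinases sit in the plasma membrane, pair up when a growth factor binds, and phosphorylate each other on tyrosines that recruit adaptor proteins, which pass the signal to the RAS-MAPK and PI3K-AKT pathways. IGF2 is a secreted ligand of IGF1R and an imprinted gene. KIT and PDGFRA are targets of kinase inhibitors in other sarcomas, and SS tumors are known for active IGF and receptor kinase signalling. WDR5 is a core subunit of the KMT2 (MLL) histone methyltransferases, and SS18::SSX is part of the SWI/SNF (BAF) chromatin remodelers.

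The 4 lists held 15141 SS18::SSX peaks with DMSO, 1175 with MS67, 35605 WDR5 peaks with DMSO, and 14123 with MS67. Coverage recovered from the peak values was 0.541 and 0.737 fragments per bp in the SS18::SSX libraries and 0.368 and 0.168 in the WDR5 libraries, with DMSO and MS67, respectively. The MS67 library was therefore 1.36 times as deep as the DMSO library for SS18::SSX but only 0.458 times as deep for WDR5. Fewer WDR5 peaks with MS67 and the lower depth of that library cannot be told apart from the counts alone, so it is said below whether the summit of a missing WDR5 peak would pass the lowest significance of the MS67 list (−log10 p of 4.06) once scaled to its depth.

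SS18::SSX had peaks at 6 of the 10 genes in DMSO-treated cells and at none of them after MS67. The windows held 21 SS18::SSX peaks with DMSO and 0 with MS67. WDR5 had peaks at 10 of the 10 genes with DMSO, with 47 peaks, and at 7 of them with MS67, with 14 peaks. Over all protein-coding genes, 31.8% had a SS18::SSX peak in the window with DMSO, 3.63% with MS67, 75.0% had a WDR5 peak with DMSO, and 54.1% with MS67. At the MS67 background of 3.63%, finding no SS18::SSX peak at 10 genes is close to what the whole list gives. The windows of these genes were long, with a median of 96.2 kb against 47.5 kb for all protein-coding genes. Per length, the 10 windows held 1.35 SS18::SSX peaks per 100 kb with DMSO, against 0.718 over all protein-coding windows. The same values for WDR5 were 3.03 against 1.85 with DMSO and 0.902 against 0.778 with MS67. *IGF2* alone held 8 of the 21 SS18::SSX peaks. For one comparison of lists, the study kept only peaks with −log10 q above 3 and fold above 3 for SS18::SSX or above 6 for WDR5. The deposited lists go below this standard, and many peaks described below do not reach it. Under it, 13 of the 21 SS18::SSX and 6 of the 47 WDR5 peaks were left with DMSO, and 0 and 5 with MS67. Of those 13, 5 were at *IGF2*, 3 at *IGF1R*, 2 at *EGFR*, 2 at *RET*, and 1 at *MET*, and of those 6, 2 were at *EGFR* and 1 each at *ERBB2*, *IGF2*, *MET*, and *RET*.

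**Figure D1:**
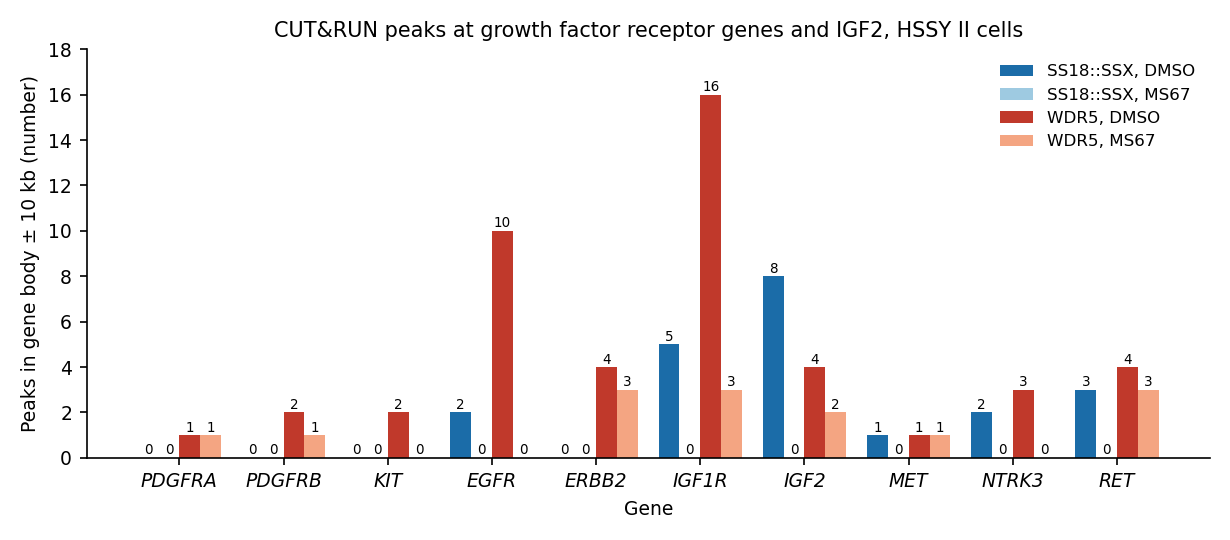
Number of CUT&RUN peaks (y axis) that overlapped each gene body or its 10 kb flanks (x axis), with 1 bar per peak list and the count printed above it. *IGF1R* with 16 and *EGFR* with 10 had the most WDR5 peaks with DMSO, *IGF2* with 8 had the most SS18::SSX peaks, and the SS18::SSX list with MS67 had 0 at every gene.

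Promoter peaks were fewer. A SS18::SSX promoter peak was found with DMSO at 3 of the 10 genes, *EGFR*, *IGF2*, and *NTRK3*, and with MS67 at 0. A WDR5 promoter peak was found with DMSO at 7 genes, *PDGFRB*, *KIT*, *EGFR*, *ERBB2*, *MET*, *NTRK3*, and *RET*, and with MS67 at 3, *PDGFRB*, *ERBB2*, and *MET*. The corresponding shares of all protein-coding genes were 13.4% and 0.719% for SS18::SSX and 43.0% and 27.7% for WDR5. With −log10 q above 5, no SS18::SSX promoter peak was left with DMSO, and WDR5 promoter peaks were left at 6 genes with DMSO and 1 with MS67. Under the study's standard, SS18::SSX promoter peaks were left at 1 gene with DMSO, and WDR5 promoter peaks at 3 with DMSO and 1 with MS67. Of the 47 WDR5 peaks with DMSO, 11 were at promoters of these genes and 29 lay in introns outside annotated exons of the gene. Of the 21 SS18::SSX peaks, 3 were at their promoters, 12 lay in introns, and 8 lay in the flanks.

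**Figure D2:**
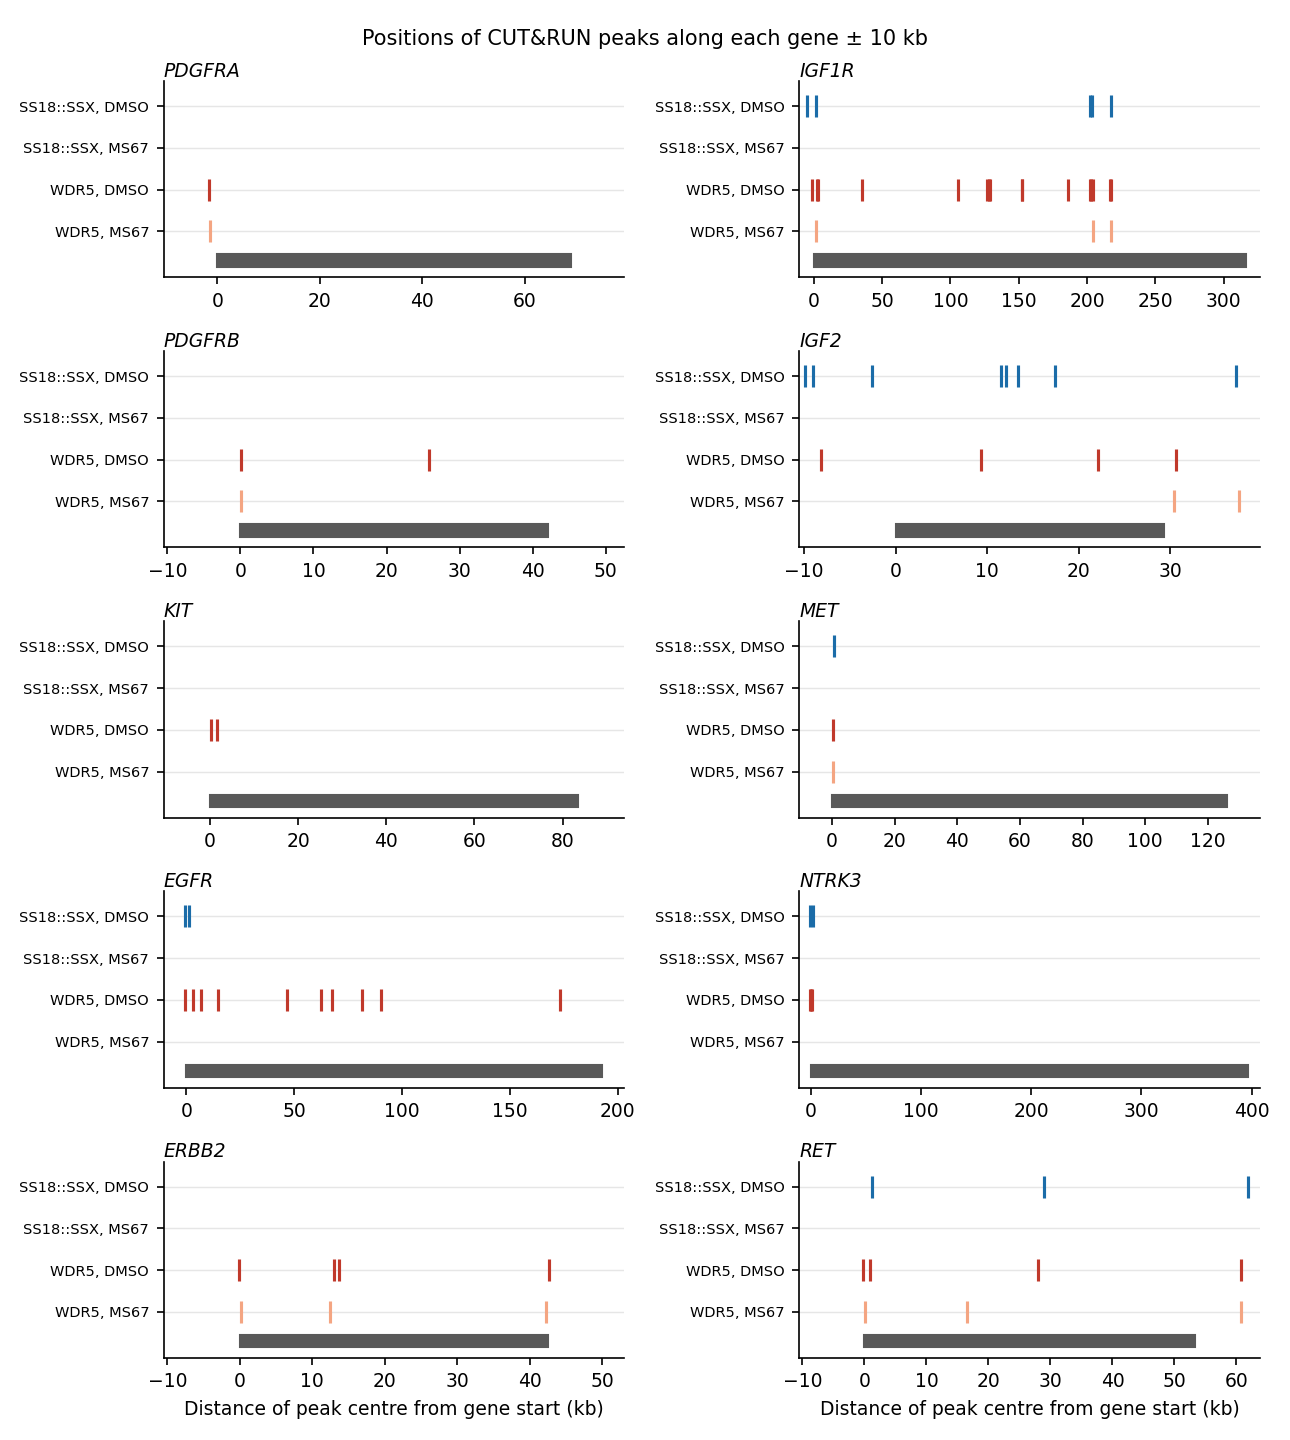
Position of each peak centre (vertical marks, x axis in kb from the gene start, in the direction of transcription) in the 4 peak lists, with the gene body as a grey bar, for the 10 genes on separate x scales. *KIT*, *MET*, and *NTRK3* had peaks only near the gene start, whereas *IGF1R*, *EGFR*, and *RET* also had peaks far inside the gene body.

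The ligand gene *IGF2* (ENSG00000167244, chr11:2129112-2158391, minus strand) had the highest SS18::SSX density of the 10. It had 8 SS18::SSX peaks with DMSO, 0 with MS67, 4 WDR5 peaks with DMSO, and 2 with MS67. In the 49.3 kb of its window, the 8 peaks came to 16.2 per 100 kb, a density higher than at 98.4% of protein-coding genes. None of the 8 overlapped a WDR5 peak. The one at an *IGF2* promoter, chr11:2140949-2141086, was centred 1 bp upstream of an internal TSS, with 3.03-fold enrichment, 17 fragments at the summit, and −log10 q of 2.22. Another 3 lay in introns from 11.6 to 13.4 kb downstream of the gene start, with −log10 q from 3.43 to 3.98. These 4 positions are also inside the readthrough gene *INS-IGF2* and the antisense gene *IGF2-AS*, so they cannot be assigned to *IGF2* alone. In the upstream flank, 1 peak was at the promoter of *INS*, the insulin gene, and 2 were at that of *TH*, which encodes tyrosine hydroxylase. The wider *TH* peak, chr11:2167012-2167825, had the highest −log10 q at *IGF2*, 5.12. The local background under the SS18::SSX summits from *TH* to the internal *IGF2* promoter was 8.28 to 13.5 times the genome-wide coverage, and the fold values there were only 2.92 to 3.49. The part of this raised background in the number of peaks was not tested. For WDR5, the peak with the highest −log10 q was 6.63 and lay in the downstream flank, chr11:2127669-2127877. It was the only WDR5 peak of *IGF2* with DMSO that overlapped an MS67 peak, chr11:2127865-2128032, which had 6 fragments at the summit against 9 with DMSO. The other 3 WDR5 peaks of *IGF2* would not pass at the MS67 depth. A WDR5 peak with MS67 at chr11:2120835-2121055 had no DMSO peak within 1 kb and rested on 4 fragments.

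**Figure D3:**
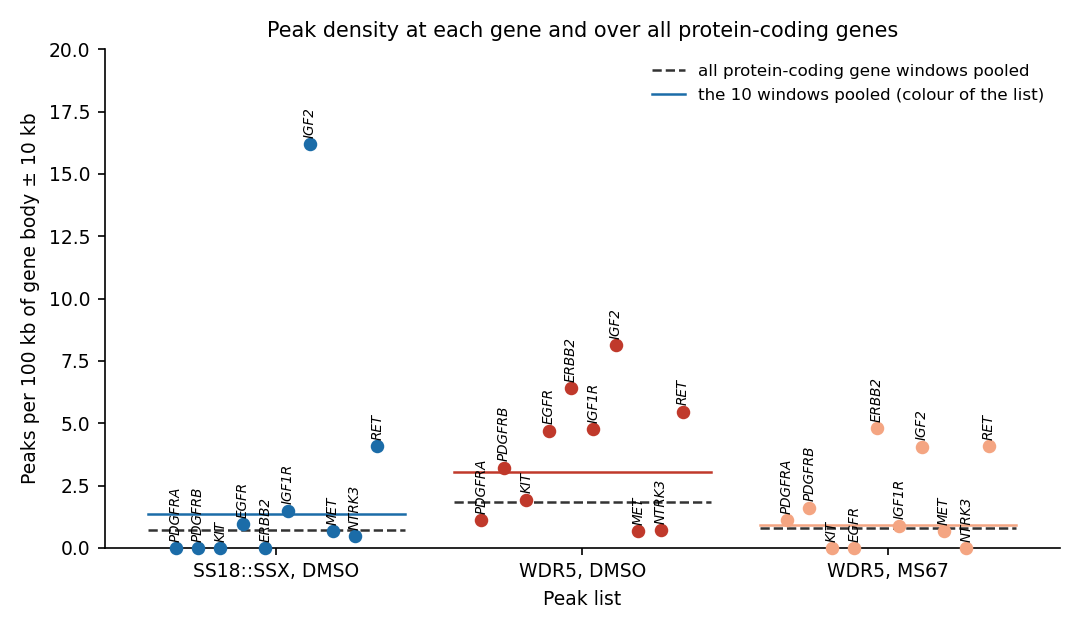
Peaks per 100 kb of gene body with 10 kb flanks (y axis) for each gene (points) in 3 peak lists (x axis). Solid lines are the 10 windows pooled and dashed lines all protein-coding windows pooled. *IGF2*, at 16.2 per 100 kb, stood far above the other 9 genes for SS18::SSX, of which *RET* was next with 4.09.

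*IGF1R* (ENSG00000140443, chr15:98648539-98964530), which encodes the receptor for IGF1 and IGF2, had the most WDR5 peaks. It had 5 SS18::SSX peaks with DMSO, 0 with MS67, 16 WDR5 peaks with DMSO, and 3 with MS67, and no promoter peak in any list. Its window was 336 kb long, so its WDR5 density with DMSO, 4.76 per 100 kb, was higher than at 71.0% of protein-coding genes. The WDR5 peak with the highest −log10 q, 7.64, was intronic, chr15:98775107-98775727, 127 kb from the gene start, with 30 fragments at the summit. It belonged to a set of 5 intronic peaks between 127 and 153 kb, at which the local background was 16.7 to 19.6 times the genome-wide coverage. None of these 5 had an MS67 peak within 1 kb. Scaled to the MS67 depth, 4 of them would pass, with −log10 p from 4.36 to 5.46 against the lowest of 4.06. The scaled value is a single expected value without sampling spread. Whether the raised background has a part in these 5 peaks was not tested.

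Farther inside *IGF1R*, SS18::SSX and WDR5 were found together. Overlap with a WDR5 peak was found for 3 of the 5 SS18::SSX peaks, which lay from 203 to 217 kb inside the gene. At the last of them, the SS18::SSX peak chr15:98865684-98865990 had 6 fragments at the summit and −log10 q of 2.49, and the WDR5 peak chr15:98865743-98866325 had 14 fragments and −log10 q of 4.73. With MS67, SS18::SSX was not called there, whereas WDR5 was, at chr15:98865854-98866295, with 11 fragments, −log10 q of 5.59, and its summit at the same base. WDR5 was also kept at 2.09 kb (17 fragments with DMSO and 14 with MS67) and at 204 kb (19 and 15 fragments). The SS18::SSX peaks nearer to the gene start, at -4.87 kb and 1.60 kb, had 16 and 17 fragments and overlapped no WDR5 peak, the second lying within 1 kb of one. The bases around the last SS18::SSX summit and around the WDR5 summit beside it are shown because the site held both proteins with DMSO and only WDR5 with MS67. Capitals mark bases that lie in both the SS18::SSX and the WDR5 peak with DMSO in the first line, and bases that lie in the WDR5 peak of both treatments in the second.

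IGF1R, SS18::SSX summit, chr15:98865606-98865805, plus strand: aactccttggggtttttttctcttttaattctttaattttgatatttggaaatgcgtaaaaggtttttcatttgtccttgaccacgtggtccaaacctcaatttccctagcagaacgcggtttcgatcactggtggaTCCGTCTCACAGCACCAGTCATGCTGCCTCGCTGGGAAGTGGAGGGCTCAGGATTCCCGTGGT

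IGF1R, WDR5 summit, chr15:98865831-98866030, plus strand: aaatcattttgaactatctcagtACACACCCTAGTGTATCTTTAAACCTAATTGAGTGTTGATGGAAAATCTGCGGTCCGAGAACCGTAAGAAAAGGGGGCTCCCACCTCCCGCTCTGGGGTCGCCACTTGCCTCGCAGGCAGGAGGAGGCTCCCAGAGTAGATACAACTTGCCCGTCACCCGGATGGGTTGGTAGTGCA

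Among the ErbB receptors, *EGFR* and *ERBB2* differed in both proteins. *EGFR* (ENSG00000146648, chr7:55019017-55211628), the epidermal growth factor receptor, had 2 SS18::SSX peaks with DMSO and 0 with MS67, and 10 WDR5 peaks with DMSO and 0 with MS67. *ERBB2* (ENSG00000141736, chr17:39687914-39730426), the coreceptor also called HER2, had 0 SS18::SSX peaks with either treatment, 4 WDR5 peaks with DMSO, and 3 with MS67. With 1 library per condition, this difference between the genes has no test.

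At *EGFR*, the stronger SS18::SSX peak, chr7:55019951-55020341, lay in an intron 1.13 kb from the gene start, with 5.77-fold enrichment, 23 fragments, and −log10 q of 8.62, the highest of all 21 SS18::SSX peaks. The other, chr7:55018396-55018616, was at the promoter, with 15 fragments and −log10 q of 3.44, and overlapped the WDR5 promoter peak chr7:55018416-55018886 (17 fragments, −log10 q of 2.94). The WDR5 peaks with the highest −log10 q were farther inside: 8.54 at 67.7 kb (chr7:55086619-55086854), 8.29 at 81.7 kb (chr7:55100560-55100863), and 9.07 at 90.5 kb (chr7:55109365-55109628), the last of these at an internal TSS. These 3 had 15, 21, and 18 fragments at the summit and would each pass the lowest significance of the MS67 list at its depth, yet no MS67 peak was found within 1 kb. The other 7, among them the promoter peak at the gene start and one at an internal TSS (chr7:55192287-55192491, 7 fragments, −log10 q of 3.17), would not pass at that depth, so their loss cannot be told apart from the lower depth. The bases below are those around the promoter SS18::SSX summit, with capitals for bases shared with the WDR5 peak, and those around the intronic WDR5 summit at 67.7 kb, picked after its values were seen because the peak was not called with MS67, with the AP-1 motif TGAGTCA in capitals.

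EGFR, SS18::SSX summit, chr7:55018348-55018547, plus strand: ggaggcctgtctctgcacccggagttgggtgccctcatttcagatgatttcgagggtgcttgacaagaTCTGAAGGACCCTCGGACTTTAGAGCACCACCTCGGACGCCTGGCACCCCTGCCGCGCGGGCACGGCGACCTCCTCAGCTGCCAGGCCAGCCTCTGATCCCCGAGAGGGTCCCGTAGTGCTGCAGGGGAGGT

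EGFR, WDR5 summit, chr7:55086681-55086880, plus strand: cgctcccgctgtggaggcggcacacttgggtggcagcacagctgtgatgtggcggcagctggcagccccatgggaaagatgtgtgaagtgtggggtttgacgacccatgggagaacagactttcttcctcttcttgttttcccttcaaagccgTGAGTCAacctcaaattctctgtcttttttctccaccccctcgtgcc

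At *ERBB2*, the promoter held the strongest WDR5 peak with MS67 of all 10 genes. With DMSO the peak chr17:39687628-39688049 had 8.48-fold enrichment, 19 fragments, and −log10 q of 11.8. With MS67 the peak chr17:39687814-39688252 had 7.80-fold enrichment, 11 fragments, and −log10 q of 7.29, at or above that of 95.7% of that list. The MS67 peak was centred at the promoter of *PGAP3* too, which is transcribed in the opposite direction, so the signal cannot be assigned to *ERBB2* alone. The other 3 WDR5 peaks with DMSO overlapped no MS67 peak but had one within 1 kb, among them that in the downstream flank at the promoter of *MIEN1*, and none of the 3 would pass at the MS67 depth. The MS67 peaks near them were chr17:39700257-39700411, with 6 fragments and −log10 q of 1.49, and chr17:39729845-39730323, with 8 fragments and −log10 q of 4.51. The bases of the promoter peak upstream of the *ERBB2* start are shown because WDR5 was kept there, with capitals for bases in the peaks of both treatments.

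ERBB2, WDR5 summit, chr17:39687808-39687913, plus strand: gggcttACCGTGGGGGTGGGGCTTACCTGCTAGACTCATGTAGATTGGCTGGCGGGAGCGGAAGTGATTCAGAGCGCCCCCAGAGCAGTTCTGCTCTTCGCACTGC

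*PDGFRA*, *PDGFRB*, and *KIT*, related receptors for PDGF and stem cell factor, had no SS18::SSX peak with DMSO or MS67. With DMSO, the nearest SS18::SSX peak was 119023 bp outside the window of *PDGFRA*, 143309 bp outside that of *PDGFRB*, and 547010 bp outside that of *KIT*. WDR5 was found at all 3. *PDGFRA* (ENSG00000134853, chr4:54229280-54298245) had 1 WDR5 peak with DMSO and 1 with MS67, at the same place, with the centre of the DMSO peak 1562 bp upstream of the gene start and so outside the promoter as defined here. The DMSO peak, chr4:54227510-54227927, had 17 fragments and −log10 q of 5.34. The MS67 peak, chr4:54227804-54227956, had 14 fragments, −log10 q of 5.77, and a summit 11 bp away. This site lies inside a readthrough transcript gene, ENSG00000282278, as well. Around its DMSO summit the sequence was as follows, with capitals for bases in the peaks of both treatments.

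PDGFRA, WDR5 summit, chr4:54227771-54227970, plus strand: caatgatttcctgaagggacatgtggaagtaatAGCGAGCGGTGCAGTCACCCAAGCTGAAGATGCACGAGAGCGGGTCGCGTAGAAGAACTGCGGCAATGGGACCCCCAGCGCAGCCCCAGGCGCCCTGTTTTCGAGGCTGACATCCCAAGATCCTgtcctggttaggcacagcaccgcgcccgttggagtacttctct

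*PDGFRB* (ENSG00000113721, chr5:150113839-150155872, minus strand) had 2 WDR5 peaks with DMSO and 1 with MS67. The promoter peak chr5:150155415-150156150 had 17 fragments and −log10 q of 7.03, and with MS67 chr5:150155613-150155870 had 7 fragments and −log10 q of 3.28. The second DMSO peak, 25.8 kb inside the gene, had 6 fragments and no MS67 peak, and it would not pass at the MS67 depth. *KIT* (ENSG00000157404, chr4:54657267-54740783) had 2 WDR5 peaks with DMSO, both at promoters, and 0 with MS67. The first, chr4:54657435-54657737, had 15 fragments and −log10 q of 3.44, and the second, chr4:54658459-54659064, had 23 fragments and −log10 q of 8.49. Of these, only the second would pass at the MS67 depth. The promoter of *PDGFRB* thus kept a WDR5 call with MS67, and those of *KIT* did not.

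*MET* (ENSG00000105976, chr7:116672196-116798377), the hepatocyte growth factor receptor, had 1 SS18::SSX peak with DMSO, 0 with MS67, 1 WDR5 peak with DMSO, and 1 with MS67. All were at the gene start. The WDR5 peak chr7:116671746-116672890 had 27 fragments and −log10 q of 14.3, at or above that of 98.3% of the WDR5 list with DMSO. It was the second most significant of the 47. The SS18::SSX peak chr7:116672610-116672839, with 12 fragments and −log10 q of 4.65, lay within it, 0.528 kb downstream of the gene start. With MS67, WDR5 had a narrower peak of 187 bp, chr7:116672392-116672578, with 9 fragments and −log10 q of 4.25, and SS18::SSX had none. The first line below is the sequence around the WDR5 summit up to the gene start, with the GC-box letters GGGCGG in capitals. The second is that around the SS18::SSX summit, with capitals for bases that lie in both the SS18::SSX and the WDR5 peak.

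MET, WDR5 summit, chr7:116672033-116672195, plus strand: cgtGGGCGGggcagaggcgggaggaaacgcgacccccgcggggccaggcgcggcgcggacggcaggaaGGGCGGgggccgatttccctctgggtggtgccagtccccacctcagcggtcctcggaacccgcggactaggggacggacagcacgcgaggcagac

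MET, SS18::SSX summit, chr7:116672605-116672804, plus strand: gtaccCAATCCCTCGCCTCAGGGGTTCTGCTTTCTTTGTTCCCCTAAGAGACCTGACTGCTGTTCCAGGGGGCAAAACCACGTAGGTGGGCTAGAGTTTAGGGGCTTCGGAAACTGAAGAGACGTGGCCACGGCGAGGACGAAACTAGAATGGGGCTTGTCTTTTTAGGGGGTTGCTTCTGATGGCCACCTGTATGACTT

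*NTRK3* (ENSG00000140538, chr15:87859751-88256791, minus strand), which encodes the neurotrophin-3 receptor TRKC, was the longest of the 10 genes and had peaks only within 1.98 kb of its start. It had 2 SS18::SSX peaks with DMSO, 0 with MS67, 3 WDR5 peaks with DMSO, and 0 with MS67. The promoter SS18::SSX peak chr15:88257432-88257714 had 11 fragments and overlapped the WDR5 peak chr15:88257304-88257524, which had 6. Both were near the lower end of their lists, with a −log10 q at or above that of only 6.51% and 1.95% of the peaks. The other 2 WDR5 peaks were chr15:88256688-88256902, at the promoter with its centre 4 bp upstream of the gene start, with 9 fragments and −log10 q of 3.99, and chr15:88255717-88256018, 0.924 kb inside the gene, with 10 fragments and the highest −log10 q of the 3, 4.86. None of the 3 WDR5 peaks would pass at the MS67 depth, so their absence with MS67 cannot be told apart from the lower depth of that library. All 5 peaks also lie in *NTRK3-AS1*, the antisense gene. The sequence around the SS18::SSX summit at the *NTRK3* promoter is printed in the direction of the gene. Capitals mark bases that lie in both the SS18::SSX and the WDR5 peak.

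NTRK3, SS18::SSX summit, chr15:88257410-88257609, minus strand: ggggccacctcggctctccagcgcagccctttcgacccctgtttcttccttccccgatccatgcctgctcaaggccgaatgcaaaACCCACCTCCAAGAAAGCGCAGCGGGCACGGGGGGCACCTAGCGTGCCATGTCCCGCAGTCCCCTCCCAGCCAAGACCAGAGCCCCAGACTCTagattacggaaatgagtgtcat

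*RET* (ENSG00000165731, chr10:43077064-43130351), the receptor for the GDNF family, had 3 SS18::SSX peaks with DMSO, 0 with MS67, 4 WDR5 peaks with DMSO, and 3 with MS67. It held the most significant WDR5 peak of the 10 genes. That peak, chr10:43104557-43105707, was centred 379 bp downstream of the nearest annotated TSS of the gene, outside the promoter range. It lay 28.1 kb inside the gene and overlapped an annotated exon. It had 9.69-fold enrichment, 34 fragments at the summit, and −log10 q of 20.8, at or above that of 99.8% of the WDR5 list with DMSO. Scaled to the depth of the MS67 library, 15.6 fragments would remain, with −log10 p of 12.6 against the lowest of that list, 4.06. No MS67 peak was found within 1 kb of it. A SS18::SSX peak, chr10:43105833-43106080, with 12 fragments and −log10 q of 2.95, lay within 1 kb of this WDR5 peak without overlapping it and had no MS67 peak either. The SS18::SSX peak of *RET* with the highest −log10 q, 3.29, was chr10:43078117-43078460, 1.22 kb inside the gene, with 18 fragments. At the *RET* promoter, WDR5 was kept: chr10:43076316-43077367 had 23 fragments and −log10 q of 9.38, and the overlapping MS67 peak chr10:43077108-43077294, centred 115 bp downstream of the nearest TSS and so just outside the promoter range, had 7 fragments and −log10 q of 2.61. WDR5 was also kept in the downstream flank, at the promoter of *CSGALNACT2* (15 fragments with DMSO and 13 with MS67). A further MS67 peak, chr10:43093592-43093756, had 5 fragments and no DMSO peak within 1 kb. The sequence around the summit of the WDR5 peak 28.1 kb inside *RET* is shown because this was the deepest of the peaks and was not called with MS67, with GGGCGG in capitals. It was picked after its values were seen.

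RET, WDR5 summit, chr10:43105403-43105602, plus strand: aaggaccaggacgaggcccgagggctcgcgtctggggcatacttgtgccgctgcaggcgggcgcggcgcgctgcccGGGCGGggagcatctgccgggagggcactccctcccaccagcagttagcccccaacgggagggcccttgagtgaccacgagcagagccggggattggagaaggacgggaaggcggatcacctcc

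The comparison of DMSO with MS67 asked which of these sites remained occupied when WDR5 was degraded. For SS18::SSX, 21 of 21 DMSO peaks (100%, 95% CI 83.9 to 100, exact Clopper-Pearson) overlapped no MS67 peak, and none had one within 1 kb. Over all protein-coding windows the share was 94.6%, so the genes did not stand apart from the list. The MS67 library was the deeper of the pair, and 19 of the 21 summits would have passed in it. For WDR5, 37 of 47 DMSO peaks (78.7%, 95% CI 64.3 to 89.3) overlapped no MS67 peak, against 72.8% over all protein-coding windows. These intervals cover counting error only and not the variation between libraries. With a distance of up to 1 kb allowed, 31 of 47 (66.0%) were without an MS67 peak.

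Many of the WDR5 peaks had too few fragments for a call at the MS67 depth. Only 18 of the 47 summits would pass at the MS67 depth, and of these 11 (61.1%, 95% CI 35.7 to 82.7) overlapped no MS67 peak, against 62.2% of such peaks in the whole list. The 11 were 6 at *IGF1R*, 3 at *EGFR*, 1 at *KIT*, and 1 at *RET*. The 7 that were kept were 1 each at *PDGFRA*, *PDGFRB*, *ERBB2*, *IGF1R*, *IGF2*, *MET*, and *RET*. Among the 29 that would not pass, 26 had no overlapping MS67 peak and 3 did. At promoters of the 10 genes, 7 of 11 WDR5 peaks (63.6%) overlapped no MS67 peak, and outside them 30 of 36 (83.3%). In the whole list the values were 63.4% at protein-coding promoters and 79.6% outside, so the lower share at promoters was not particular to these genes.

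**Figure D4:**
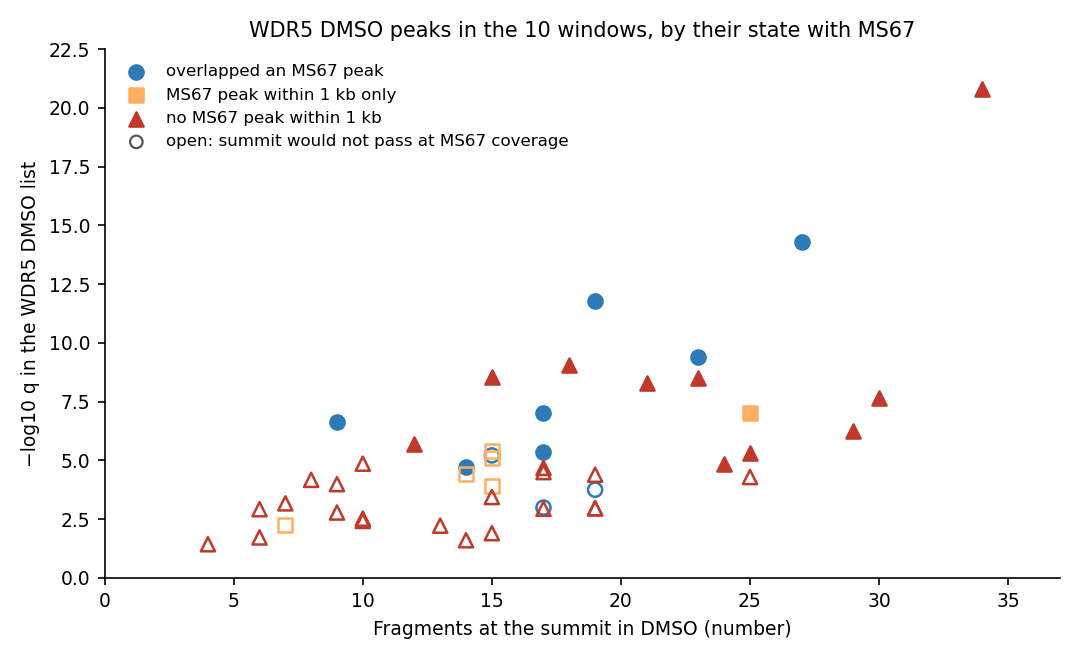
Fragments at the summit (x axis) and −log10 q (y axis) of the 47 WDR5 DMSO peaks, with colour and shape for the state with MS67 and open symbols for summits that would not pass at the depth of the MS67 library. The topmost point is the *RET* peak 28.1 kb inside the gene, with 34 fragments and no MS67 peak within 1 kb, followed by the *MET* promoter peak with 27 fragments, which overlapped one.

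At the 10 WDR5 DMSO peaks that overlapped an MS67 peak, the fragments at the 2 summits could be compared. The summits of a pair were a median of 9 bp apart. At *MET* they were 375 bp apart and at *IGF2* 250 bp, so the counts there come from different positions. Relative to the DMSO count scaled by the coverage ratio of 0.458, the MS67 count was higher in 7 pairs and lower in 3, with a median ratio of 1.58 and a range of 0.667 to 1.89. The 3 lower pairs were the promoter peaks of *RET* (0.667), *MET* (0.726), and *PDGFRB* (0.899). The highest were the *RET* flank at *CSGALNACT2* (1.89), *PDGFRA* (1.80), and *IGF1R* at 2.09 kb (1.80). Fold enrichment was higher with MS67 in 5 pairs and lower in 5. A site enters this comparison only when MS67 still gave a peak, which favours high MS67 counts, and the lists were not scaled to the murine spike-in, so the ratios do not give absolute occupancy.

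**Figure D5:**
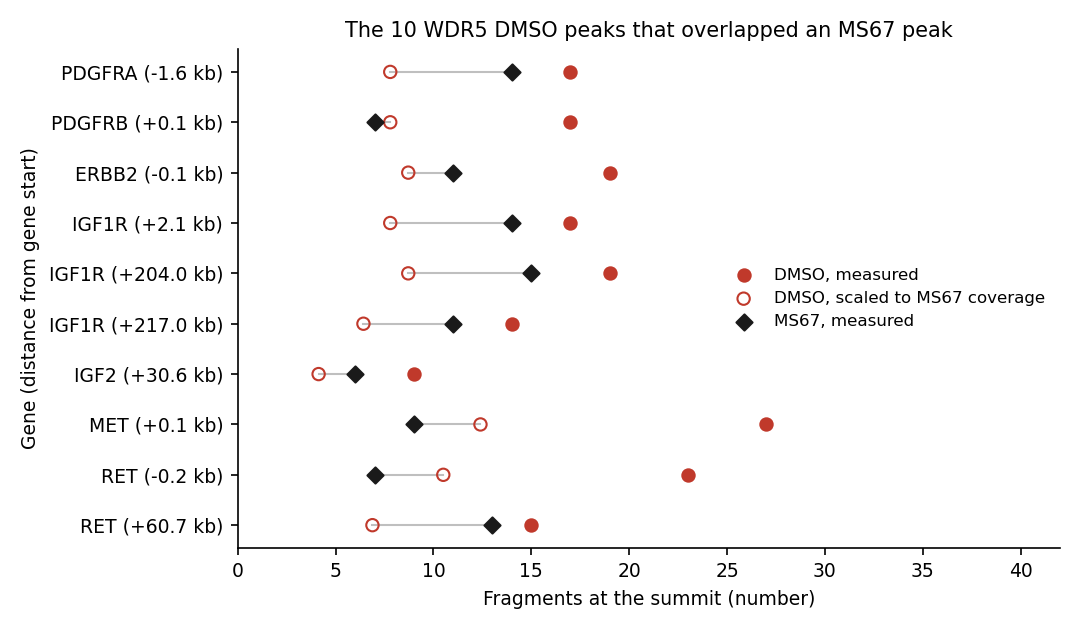
Fragments at the summit (x axis) of the 10 WDR5 DMSO peaks that overlapped an MS67 peak (y axis, gene and distance of the DMSO peak from the gene start). Filled circles are DMSO, open circles DMSO scaled to the MS67 coverage, and diamonds MS67. The MS67 count lay above the scaled DMSO count in 7 pairs and below it at the *PDGFRB*, *MET*, and *RET* promoters.

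Whether SS18::SSX and WDR5 shared sites was compared in DMSO-treated cells. Among the 21 peaks of SS18::SSX, 6 (28.6%, 95% CI 11.3 to 52.2) shared at least 1 bp with WDR5, 3 at *IGF1R* and 1 each at *EGFR*, *MET*, and *NTRK3*. Over all protein-coding windows the share was 36.0%, which is inside this interval. Under the study's standard, 1 of 13 (7.69%) overlapped. Of the 47 WDR5 peaks, 6 (12.8%) overlapped a SS18::SSX peak, against 13.9% of the whole WDR5 list with DMSO. With a distance of up to 1 kb allowed, 12 of the 21 SS18::SSX peaks had a WDR5 peak, among them all 3 at *RET*. This wider share was not counted over the whole list, so it has no background here. WDR5 peaks that overlapped SS18::SSX were without an MS67 peak in 4 of 6 cases, and the others in 33 of 41. The 95% CIs were 22.3 to 95.7 and 65.1 to 91.2, and they treat peaks as independent, although 3 of the 6 were at *IGF1R*. No test of a difference was run.

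The sequence at these sites was compared with the whole lists in the 200 bases around each summit. The median GC content was 62.0% at the 21 SS18::SSX summits and 61.5% at the 47 WDR5 summits, against 60.0% and 58.0% in the lists. The WDR5 summits that overlapped an MS67 peak held a median of 15 CpG dinucleotides (range 3 to 26) and the others 6 (range 1 to 24). In the whole WDR5 list the medians were 10 and 5, so the direction was that of the list. The letters GGGCGG, searched on both strands as were the other motifs, occurred at 12 of 47 WDR5 summits (25.5%, against 23.0% of the list) and 4 of 21 SS18::SSX summits (19.0%, against 20.4% of the list). The E-box CACGTG occurred at 5 WDR5 summits (10.6%, 95% CI 3.55 to 23.1, against 4.34% of the list) and 2 SS18::SSX summits (9.52%, 95% CI 1.17 to 30.4, against 4.42% of the list), 1 of the latter the *IGF1R* site printed above, where it stands in lower case. TGAGTCA occurred at 2 WDR5 summits (4.26%, against 3.13% of the list), 1 in *EGFR* and 1 in *ERBB2*, and at 0 SS18::SSX summits (2.84% of the list). CCGGAAG occurred at 1 WDR5 summit (2.43% of the list) and 0 SS18::SSX summits (2.21% of the list), and TGACGTCA at none of either (0.183% and 0.251% of the lists). None of the motifs searched contains another. A match of these letters is a description and does not show that a factor bound there.

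Other genes of the same pathways were counted in the same way. Of 49 other receptor tyrosine kinase genes, 30 (61.2%) had a SS18::SSX peak in the window with DMSO and 6 (12.2%) with MS67. A WDR5 peak was found at 41 (83.7%) with DMSO and 25 (51.0%) with MS67. The shares of all protein-coding genes were 31.8%, 3.63%, 75.0%, and 54.1%. Promoter peaks were found at 14 (28.6%) and 3 (6.12%) of the 49 for SS18::SSX and at 28 (57.1%) and 10 (20.4%) for WDR5. The promoter shares of all protein-coding genes were 13.4%, 0.719%, 43.0%, and 27.7%. The median window of the 49 genes was 88.6 kb, again longer than the 47.5 kb of all genes. Those with the most promoter peaks were *AXL*, the GAS6 receptor, with 3 WDR5 promoter peaks with each treatment, *LMTK3*, with 2 SS18::SSX and 3 WDR5 promoter peaks with DMSO and 0 and 1 with MS67, the collagen receptor gene *DDR1*, with 3 for WDR5 with DMSO and 1 with MS67, and the insulin receptor-related gene *INSRR*, with 1 in each of the 4 lists. *AXL* thus kept its number of WDR5 promoter peaks.

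Of 28 genes for ligands and coreceptors of the 10, 15 had a SS18::SSX peak in the window with DMSO and 2 with MS67, and 22 had a WDR5 peak with DMSO and 14 with MS67. The GDNF coreceptor gene *GFRA1* had 2 SS18::SSX and 2 WDR5 promoter peaks with DMSO and 0 and 1 with MS67. *GDNF* itself had 1 and 2 with DMSO and 0 of either with MS67. Of 14 genes for IGF binding proteins and substrates, 7 had a SS18::SSX peak with DMSO and 0 with MS67, and 13 had a WDR5 peak with DMSO and 7 with MS67. *IGFBP3*, which encodes the main carrier of IGFs in blood, had 2 SS18::SSX promoter peaks and 1 WDR5 promoter peak with DMSO and none with MS67. Of 16 genes for receptor adaptors and feedback inhibitors, 5 had a SS18::SSX peak with DMSO and 0 with MS67, and 15 had a WDR5 peak with DMSO and 8 with MS67. With DMSO, the SS18::SSX share was 31.2% of these adaptor genes, close to the 31.8% of all protein-coding genes. It was 53.6% of the ligand and coreceptor genes. At the MS67 background of 3.63%, no SS18::SSX peak at 14 or 16 genes is close to what the whole list gives. *GRB2*, which links receptors to RAS activation, had 3 WDR5 promoter peaks with DMSO and 3 with MS67, and 1 SS18::SSX promoter peak with DMSO and 0 with MS67. The median window was 80.6 kb for the ligand and coreceptor genes, 52.7 kb for the IGF genes, and 93.0 kb for the adaptor genes. All were longer than the 47.5 kb of all genes, and the counts were not corrected for length.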

How the data were processed

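HSSY II cells were profiled by CUT&RUN, with 1 library for each antibody (SS18::SSX or WDR5) and treatment (DMSO or 2.5 μM MS67, 4 days), which gave 4 peak lists. The authors aligned reads to hg38 and to the mouse spike-in genome with Bowtie2, removed duplicates with Picard, and called peaks in each library with MACS2. The submitters' processing notes list SAMtools 1.9, bedtools 2.28.0, and deepTools 3.3.0. The MACS2 command options and any control are not given in the sources used here. For a comparison of lists the study used peaks with −log10 q above 3 and fold above 3 (SS18::SSX) or 6 (WDR5), and this standard was tried as an alternative after the data were seen. The deposited values of each peak are its summit fold (a ratio over the local background) and its −log10 p and −log10 q.

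Genes were those of GENCODE 44 (hg38), and peaks overlapped when they shared at least 1 bp. Fold and −log10 p together fix the summit pileup and the local background. Whole-number pileups fitted 100% of peaks within 0.001 in −log10 p, with no spike-in scaling, and the step was tested on simulated data. The lowest background of a list was taken as its coverage. To ask whether a DMSO summit would pass at the MS67 depth, its pileup and background were multiplied by the coverage ratio and compared with the smallest −log10 p of the MS67 list, an alternative added after the data were seen. Shares have exact Clopper-Pearson 95% intervals. An exon was one of any annotated transcript of the same gene, and exons of other genes were not checked.

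The genes, pathway lists, and comparisons were chosen with earlier results of these data known. All 10 genes were named. Single peaks were named when at a promoter, highest in −log10 q for a gene, or in an MS67 list, and in addition where they overlapped or neighboured such a peak. Other genes were named when a counted peak was at their promoter, and up to 4 per pathway list by their number of promoter peaks. Sequences are the 200 bases around a summit in hg38, without annotated UTRs. Alternatives were stricter peaks, other windows, overlaps, and promoters, merged peaks, and reduced lists. RNA data were not used here. Scripts ran in Python 3.11.15 with pandas 2.3.3, scipy 1.17.1, matplotlib 3.10.9, and numpy 2.4.6.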

Additional observations from a re-analysis of the deposited data

How the results depend on the processing

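Of 69 alternative values of the summary counts and shares, 48 stayed within 1.5 times the count or within the 95% interval of the share. The other 21 moved. With −log10 q above 5, 3 SS18::SSX and 19 WDR5 peaks were left in the windows with DMSO and 5 WDR5 peaks with MS67, 0% of the SS18::SSX peaks overlapped WDR5, and promoter peaks were left at 0 genes for SS18::SSX with DMSO and 1 for WDR5 with MS67. Under the study's standard of −log10 q above 3 and fold above 3 or 6, chosen after the data were seen, the windows held 13 SS18::SSX and 6 WDR5 peaks with DMSO and 5 WDR5 peaks with MS67, 7.69% of the SS18::SSX peaks overlapped WDR5, and promoter peaks were left at 1 gene for SS18::SSX and 3 for WDR5 with DMSO and 1 for WDR5 with MS67. In gene bodies alone there were 13 SS18::SSX peaks with DMSO. With flanks of 50 kb there were 2 SS18::SSX peaks with MS67. The share of WDR5 DMSO peaks without an MS67 peak was 89.4% when an overlap of 50% of the peak was required, 63.2% when the DMSO list was reduced to the size of the MS67 list, and 61.1% among summits that would pass at the MS67 depth. With 1 kb allowed, 57.1% of the SS18::SSX peaks had a WDR5 peak. With promoters 1 kb to either side, 5 genes had a SS18::SSX promoter peak with DMSO. With the start of the gene record alone, 0 genes had a WDR5 promoter peak with MS67. The MS67 peaks at *ERBB2*, *PDGFRB*, and *MET* were centred 119, 131, and 289 bp downstream of that start, beyond the limit of 100 bp. Their promoter calls thus rested on other annotated start sites, although the peaks lay close to the gene start. Among single genes, 78 of 120 alternative counts stayed within 1.5 times and 42 moved. No paired analysis was possible because each condition had 1 library, and for the same reason no replicate could be left out. The WDR5 MS67 library, at 0.168 fragments per bp, limits what its missing peaks can show.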

Other observations

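Peaks in the windows also lay at the promoters of neighbouring genes. Next to *RET*, the SS18::SSX peak chr10:43138928-43139076 (8 fragments) was at the promoter of *CSGALNACT2-DT*, and *CSGALNACT2*, which encodes an enzyme of chondroitin sulfate synthesis, had a WDR5 promoter peak with DMSO and with MS67, at −log10 q of 5.21 and 5.72. At *IGF1R*, the WDR5 peak chr15:98647228-98647439 (19 fragments, −log10 q of 4.39) was at the promoter of *IRAIN*, a long noncoding RNA gene on the opposite strand, and had no MS67 peak within 1 kb, but would not pass at the MS67 depth. At *IGF2*, the *INS* promoter peak chr11:2160871-2161017 had 15 SS18::SSX fragments and −log10 q of 1.76, and the WDR5 peak chr11:2166332-2166668 inside *TH* had 17 fragments and −log10 q of 4.68 and was not called with MS67, at whose depth it would not pass.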
